A study of Mus musculus with 2 samples.

Results

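The mitochondrial ribosomal protein genes, named Mrpl for the large and Mrps for the small subunit of the ribosome inside mitochondria, were examined in 2 RNA sequencing libraries of mouse peritoneal macrophages. All listed Ensembl IDs whose mouse symbol begins with Mrpl or Mrps and a number were taken, without pseudogenes. That gave 78 genes of 34745 listed IDs, 49 Mrpl and 29 Mrps, and all 78 are annotated as protein-coding. A single library was labelled Kdm2b-/- (title Kdm2b-KO) and a single one wild type (WT), both from C57BL/6 mice. In both, macrophages were collected 4 days after thioglycollate, an irritant that draws these cells into the peritoneal cavity, and were then exposed to bacterial lipopolysaccharide (LPS) at 100 ng/ml. The labels disagree on how long: 4 h by the characteristics, 3 h by the treatment text. Nothing in the labels states the kind of Kdm2b deletion, the number and age of the animals or any pooling. With 1 library per group there was no replicate and no test, so each difference below describes these libraries and cannot be set against the spread between animals.

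Mitochondrial ribosomes translate the few proteins encoded by mitochondrial DNA, all of them core subunits of the respiratory chain and ATP synthase. Their RNA comes from the mitochondrial genome, but every one of their proteins is encoded in the nucleus, made in the cytosol and imported. Many of these proteins descend from the ribosome of the bacterial ancestor, and others were added in the course of evolution and have no bacterial counterpart. Activated macrophages are known to turn from respiration towards glycolysis after LPS.

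Kdm2b itself was not lower in the library labelled Kdm2b-KO. Levels are in FPKM, fragment counts scaled to transcript length and to library size, as the authors deposited them. Kdm2b stood at 0.326 FPKM in the library labelled Kdm2b-KO and 0.205 FPKM in the WT library, or about 11 and 7 fragments, although reads from exons outside a deletion would still count towards it. The label was therefore not borne out by the level of the gene, and the libraries are called by their labels throughout. About 26800000 fragments were estimated for the library labelled Kdm2b-KO and 27300000 for the WT library, whose FPKM summed to 376746 and 402003 in that order. Genes that averaged 1 FPKM or more over both libraries are called past the floor. Differences are log2 ratios of the library labelled Kdm2b-KO over the WT library on the FPKM + 1 scale, which understates differences of low genes. All 10 macrophage markers were past the floor, and they summed to 16103 FPKM in the library labelled Kdm2b-KO and 13822 FPKM in the WT library. Lyz2 alone set the direction of these sums, at 11409 FPKM in the library labelled Kdm2b-KO and 8945 FPKM in the WT library. The other 9 summed to 4694 and 4876 FPKM in that order. Among them Cd14 was lower, at 905 and 1136 FPKM (log2 ratio -0.33), and Adgre1 (0.35), Mertk (0.29) and Csf1r (0.25) were higher. Of the 10 markers 5 had a log2 ratio below 0. Counting intervals (described below) lay wholly below 0 for 1 of the 10 and wholly above 0 for 5. Of 7 B cell markers 2 were past the floor, with a sum of 2.87 FPKM in the library labelled Kdm2b-KO against 27.3 FPKM in the WT library. T and NK cell markers had 0 of 7 past the floor, and 6 of the 7 were at 0 in both libraries. Of 8 neutrophil markers 1 was past the floor, with sums of 15.2 FPKM in the library labelled Kdm2b-KO and 14.4 FPKM in the WT library and with Ly6g and Mpo at 0 in both. All 10 mesothelial and stromal markers passed, with sums of 381 and 339 FPKM in that order of libraries, of which Dcn held 251 and 248 FPKM. They differed in both directions, with 6 above 0 and 4 below. Col1a1 (log2 ratio 1.87), Col1a2 (1.24) and Col3a1 (1.18) were over 2-fold higher in the library labelled Kdm2b-KO. The mesothelial markers went both ways, with Wt1 (0.44) and Upk3b (0.35) higher and Msln (-0.50), Krt19 (-0.31) and Krt8 (-0.18) lower. Lum (-0.35) was lower too. The part of these cells in the values below was not tested, and in bulk RNA fewer cells of a type and less RNA per cell cannot be told apart.

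Most mitochondrial ribosomal protein genes were slightly lower in the library labelled Kdm2b-KO, in the large and in the small subunit alike. The floor left 77 of the 78 genes and 9038 genes in all. The 77 genes had a median log2 ratio of -0.15, with the middle 50% between -0.28 and -0.04. All 9038 genes had a median of 0.10, with the middle 50% between -0.10 and 0.29. Family minus all genes, the medians differed by -0.25. How the libraries are scaled moves both medians: the family's was -0.26 with all genes brought to a median of 0, -0.27 with equal upper quartiles and -0.08 with equal FPKM totals, where that of all genes was 0.18. Below 0 were 62 of the 77 genes (80.5%), against 36.8% of all genes, and above 0 were 15 of the 77, against 63.2% of all genes.

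The differences were small. At least 1.2-fold lower were 22 of the 77 genes (28.6%), against 12.6% of all genes, and at least 1.2-fold higher were 2 of the 77, against 28.1% of all genes. At least 1.5-fold lower were 2 genes, Mrps21 and Mrps23, or 2.60% of the 77 against 2.80% of all genes, a share near the background. No gene was 1.5-fold higher, against 4.70% of all genes. Mrps21 was the only one of the 77 at least 2-fold lower, a rule met by 1.02% of all genes, and 0 were 2-fold higher, against 0.863%.

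Counting error was set beside each ratio as a 95% interval of the FPKM ratio itself, without the added 1, from fragments estimated at the median annotated transcript length of the gene. It covers counting error only, and for Kdm2b it ran from -0.82 to 2.28. The interval lay wholly below 0 for 29 of the 77 genes (37.7%), against 16.5% of all genes, and wholly above 0 for 2 of the 77, Mrpl2 and Mrps2, against 31.2% of all genes. With the longest transcript as the length, which gives more fragments, these counts were 37 and 3 of the 77. Over 9022 genes they rose as well, to 1836 below 0 and 3879 above 0. For the remaining genes the libraries could not be told apart at this depth.

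**Figure D1:**
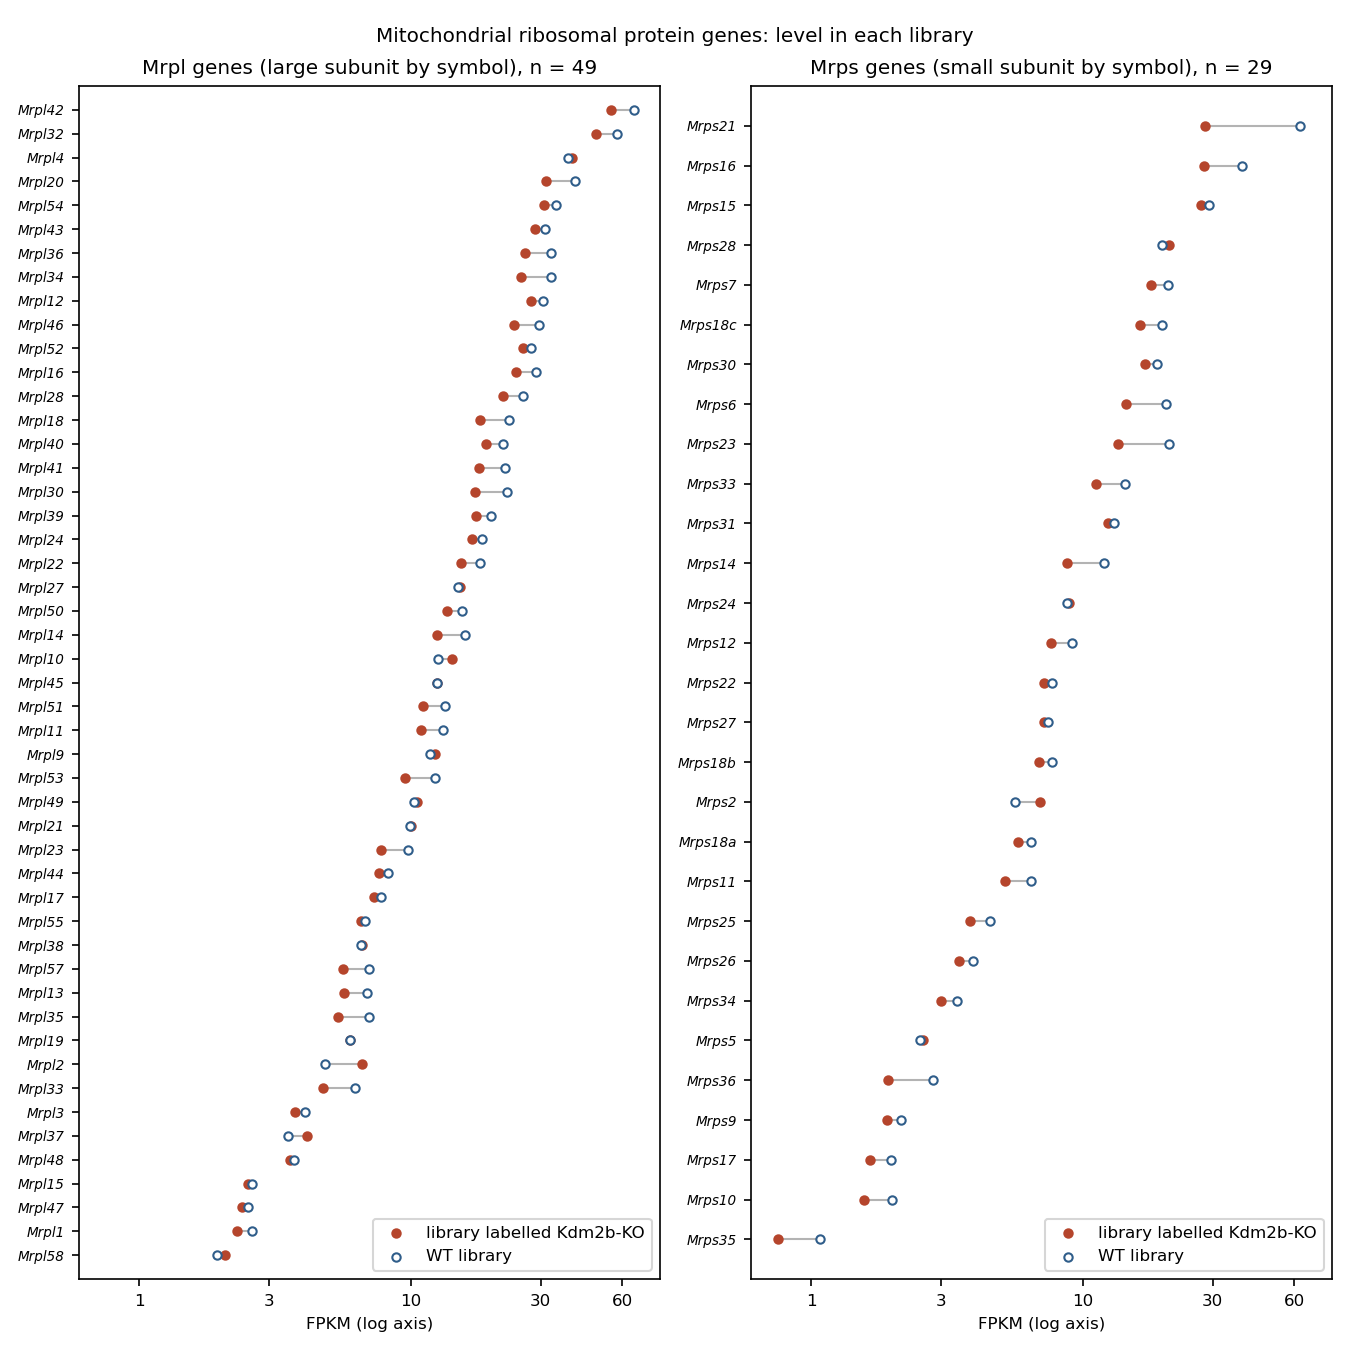
Level of each of the 78 genes in FPKM (log axis) in the library labelled Kdm2b-KO (filled points) and the WT library (open points), 1 library each, with grey lines joining the values of a gene and genes ordered by their mean. Levels run from 0.753 to 54.4 FPKM in the library labelled Kdm2b-KO and from 1.08 to 66.0 FPKM in the WT library, most filled points lie slightly left of the open ones, and Mrps21 has the widest gap.

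The members stood at very different levels within a library, although each ribosome is built from a fixed set of proteins. Between the highest and the lowest gene lay a 72.3-fold range in the library labelled Kdm2b-KO and a 61.3-fold range in the WT library. The order of the genes was nearly the same in both, with a Pearson correlation of log2(FPKM + 1) of 0.99 and a Spearman correlation of 0.99 across the 78 genes. Both libraries share the gene lengths used to make FPKM, and genes are not independent replicates. The 77 genes stood at a median percentile of 68.9 among all genes past the floor.

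In the large subunit, Mrpl42, a protein with no bacterial counterpart, was the most abundant, at 54.4 FPKM in the library labelled Kdm2b-KO and 66.0 FPKM in the WT library. Mrpl32, whose cleavage by a mitochondrial protease is required for ribosome assembly, followed at 47.8 and 57.3 FPKM in the same order of libraries, and Mrpl4 at 39.0 and 37.9 FPKM. The first pair was lower in the library labelled Kdm2b-KO, by log2 ratios of -0.27 and -0.26, and Mrpl4 was close in both at 0.04. At the low end stood Mrpl58, a peptidyl-tRNA hydrolase built into the ribosome, at 2.06 FPKM in the library labelled Kdm2b-KO and 1.93 FPKM in the WT library. Mrpl1 (2.28 and 2.60 FPKM) and Mrpl47 (2.38 and 2.50 FPKM) were as low.

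In the small subunit, Mrps21, Mrps16 and Mrps15, all with bacterial homologues, were the most abundant. Mrps16 stood at 27.9 FPKM in the library labelled Kdm2b-KO and 38.6 FPKM in the WT library, and Mrps15 at 27.1 and 29.0 FPKM. The least abundant past the floor were Mrps10 (1.56 and 1.98 FPKM), Mrps17 (1.64 and 1.96 FPKM) and Mrps9 (1.89 and 2.14 FPKM). Mrps35 was the only member under the floor, at 0.753 FPKM in the library labelled Kdm2b-KO and 1.08 FPKM in the WT library. Its counting interval, -1.68 to 0.67, spanned 0.

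Large and small subunit genes differed in level more than in log2 ratio. The median level of the Mrpl genes was 12.5 FPKM in the library labelled Kdm2b-KO and 13.2 FPKM in the WT library, and that of the Mrps genes past the floor 7.41 and 8.23 FPKM. Large over small, the medians had a ratio of 1.68 in the library labelled Kdm2b-KO and of 1.60 in the WT library. The ratio depended on which genes entered: with a floor of 5 FPKM it was 1.25 and 1.14, and without genes that overlap another gene on the same strand 1.97 and 2.01.

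The median log2 ratio was -0.14 for the 49 Mrpl genes (middle 50% from -0.27 to -0.03) and -0.16 for the 28 Mrps genes (-0.29 to -0.09). Below 0 were 38 of 49 and 24 of 28. The difference of the medians, large minus small, was 0.02, and its sign turned in 4 of the alternative settings, so no direction between the subunits can be read from it. The spread was wider in the small subunit, with an SD over genes of 0.25 against 0.17 for the large one. Without Mrps21 the small subunit had an SD of 0.18.

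Summed over the genes, the levels showed the weight of that gene. The Mrpl genes summed to 751 FPKM in the library labelled Kdm2b-KO and 860 FPKM in the WT library, a ratio of 0.874. The Mrps genes summed to 291 and 373 FPKM, a ratio of 0.782. Without Mrps21 the ratio of the Mrps sums was 0.850. All 78 genes together held 0.277% of the FPKM sum in the library labelled Kdm2b-KO and 0.307% in the WT library.

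Cryo-electron microscopy places a pair of proteins with small-subunit names, Mrps30 and Mrps18a, in the large subunit. Mrps30 stood at 16.9 FPKM in the library labelled Kdm2b-KO and 18.7 FPKM in the WT library (log2 ratio -0.13), and Mrps18a at 5.75 and 6.42 FPKM (-0.14). Both lay close to the medians of either subunit. With them counted in the large subunit the difference of the medians was 0.04.

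Mrps21, which encodes a protein descended from bacterial S21, had the largest difference of all members. It stood at 28.2 FPKM in the library labelled Kdm2b-KO and 63.0 FPKM in the WT library (about 325 and 739 fragments). The log2 ratio was -1.13 with a counting interval of -1.35 to -0.97. In the WT library it was the most abundant small subunit gene by a wide margin, whereas in the library labelled Kdm2b-KO it was level with Mrps16 and Mrps15. The gene (ENSMUSG00000054312, chromosome 3, 95862634 to 95871519, minus strand, GRCm38) overlaps no other annotated gene. Its 4 annotated transcripts run from 244 to 488 bases, so that its longest is the shortest longest transcript among the 77 genes, and FPKM of short transcripts is sensitive to the length that is assumed. Whether the use of these transcripts differed between the libraries was not tested.

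Mrps23, a small subunit protein without a bacterial counterpart, was next. It stood at 13.5 FPKM in the library labelled Kdm2b-KO and 20.7 FPKM in the WT library, a log2 ratio of -0.59 with an interval of -0.86 to -0.38. Mrps6 (14.3 and 20.2 FPKM, -0.47), Mrps16 (-0.46) and Mrps14 (8.72 and 11.9 FPKM, -0.41), which descend from bacterial small subunit proteins, were the other low ones. The 5 lowest log2 ratios of the family were thus all in small subunit genes. This did not hold with the trend in length and GC content removed (described below). Mrpl23 (-0.49) and Mrpl33 (-0.43) were then lower than Mrps14 (-0.41) and Mrps6 (-0.28). Mrps6 overlaps Slc5a3 on the same strand, so its value is uncertain.

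At the other end of the small subunit stood Mrps2, the counterpart of bacterial S2, at 6.94 FPKM in the library labelled Kdm2b-KO and 5.61 FPKM in the WT library. Its log2 ratio was 0.26, with an interval of 0.10 to 0.51. Mrps28 (20.7 and 19.5 FPKM, 0.08) and Mrps24 (8.92 and 8.74 FPKM, 0.03) followed, both with a same-strand overlap, that of Mrps24 with Urgcp. Next were Mrps5 (2.57 and 2.51 FPKM, 0.02) and Mrps27 (7.19 and 7.42 FPKM, -0.04). The counting intervals of Mrps28, Mrps24, Mrps5 and Mrps27 all spanned 0. Mrps12, the counterpart of the S12 protein of the decoding centre, stood at 7.61 FPKM in the library labelled Kdm2b-KO and 9.08 FPKM in the WT library (-0.23), with an interval that spanned 0.

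Among large subunit genes the lowest ratios were close together. Mrpl30 stood at 17.2 FPKM in the library labelled Kdm2b-KO and 22.6 FPKM in the WT library (-0.38), Mrpl34 at 25.5 and 32.9 FPKM (-0.35), and Mrpl20 at 31.3 and 40.2 FPKM (-0.35). Mrpl53 (9.48 and 12.2 FPKM, -0.33), which overlaps Gm42688 on the same strand, followed. So did Mrpl18 (18.0 and 22.9 FPKM, -0.33), which overlaps Tcp1 on the opposite strand. The counting intervals of these 5 genes lay wholly below 0, the closest to it being that of Mrpl53 at -0.65 to -0.07. Apart from Mrpl53 they encode proteins with bacterial homologues.

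The highest large subunit gene was Mrpl2, whose bacterial counterpart L2 lies near the peptidyl transferase centre. It stood at 6.62 FPKM in the library labelled Kdm2b-KO and 4.84 FPKM in the WT library, a log2 ratio of 0.38 with an interval of 0.12 to 0.79. The gene overlaps Gm26904 on the same strand, and its value is uncertain for that reason. Mrpl37 (4.14 and 3.53 FPKM, 0.18), Mrpl10 (14.2 and 12.6 FPKM, 0.16), Mrpl58 (0.06) and Mrpl9 (12.3 and 11.8 FPKM, 0.06) followed, all with intervals that spanned 0.

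Members of the stalk, the arm of the large subunit that binds translation factors, had log2 ratios on both sides of 0. Most of their intervals spanned 0 at the median transcript length. With the longest transcript as the length those of Mrpl10 (0.01 to 0.34), Mrpl11 (-0.40 to -0.14) and Mrpl12 (-0.27 to -0.02) did not. A split in direction thus depends on the length assumed, and none is read from them. Mrpl10, which anchors the stalk, was above 0, with an interval of -0.02 to 0.37. Mrpl12 is the flexible stalk protein that also binds the mitochondrial RNA polymerase. It stood at 27.6 FPKM in the library labelled Kdm2b-KO and 30.5 FPKM in the WT library (-0.14), with an interval of -0.286 to -0.003. Mrpl11, at the base of the stalk, stood at 10.9 and 13.2 FPKM (-0.25), with an interval from -0.54 to 0.01.

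Proteins with and without bacterial homologues were compared, with Mrps30 and Mrps18a placed in the large subunit. Classes follow the unified names of ribosomal proteins, by which Mrps18a and Mrps18b, relatives of bacterial S18, count as specific to mitochondria. The median log2 ratio was -0.22 for the 29 large subunit genes with a bacterial homologue and -0.14 for the 21 specific to mitochondria. In the small subunit it was -0.22 for 15 genes with a homologue and -0.14 for 9 without. The SD over genes was 0.24 for all genes with a homologue and 0.15 for those without, and the gap between the medians was not tested. With the trend in length and GC content removed (described below) the order held in the large subunit, at -0.18 with and -0.09 without a homologue, and turned in the small subunit, at -0.16 with and -0.21 without. Mrpl55 (-0.04), Mrps28 (0.08) and Mrps36 (1.91 and 2.80 FPKM, -0.38) were entered in no class, whatever their unified names, so the classes are incomplete. Mrps36 is by later work a component of the oxoglutarate dehydrogenase complex rather than of the ribosome.

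**Figure D2:**
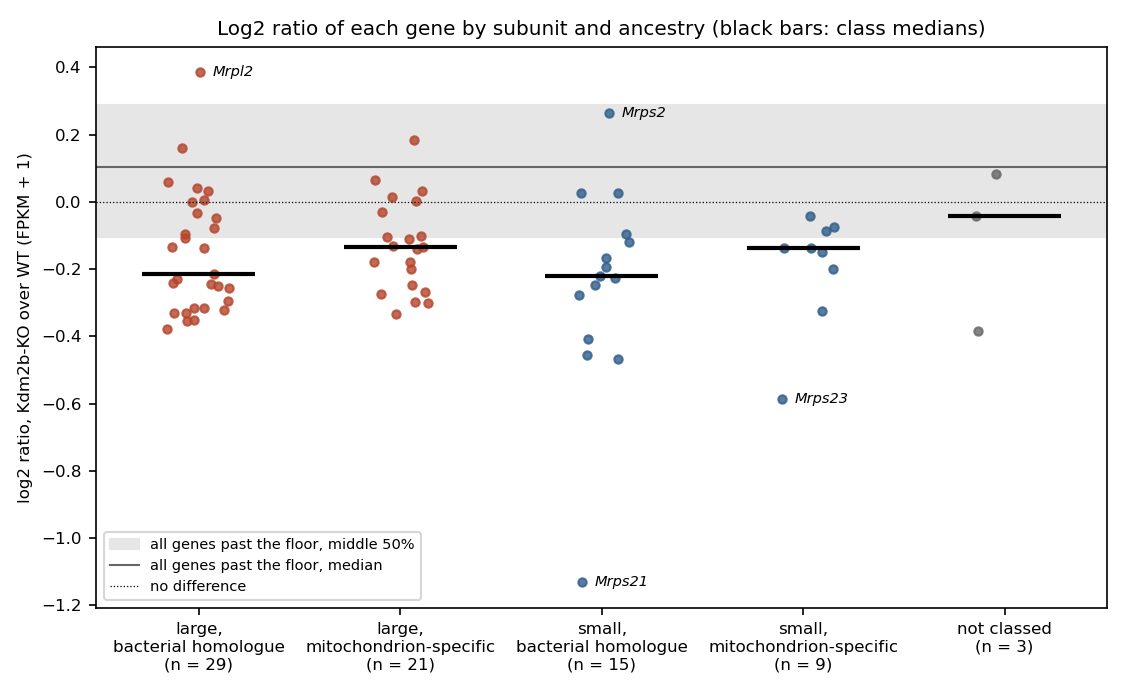
Log2 ratio of the 77 genes past the floor (points, FPKM + 1 scale, library labelled Kdm2b-KO over WT library) by subunit and by presence of a bacterial homologue, with black bars for class medians and the grey band for the middle 50% of all 9038 genes. Class medians of -0.22, -0.14, -0.22 and -0.14 all lie under the median of all genes, 0.10, and Mrps21 stands apart at -1.13.

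Longer transcripts had higher log2 ratios over all genes, and mitochondrial ribosomal protein genes are short: their longest annotated transcripts had a median of 1849 bases, against 3092 bases over all genes past the floor. The Pearson correlation of the log2 ratio with log2 length was 0.41 over 9022 genes and 0.23 over the 77. In the 26 shortest members (488 to 1138 bases) the median log2 ratio was -0.25, and in 695 other genes of that length range it was -0.23. For these the family and other short genes gave nearly the same value.

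In members whose longest annotated transcript was longer this was not so. The 25 of middle length (1219 to 2625 bases) had a median of -0.11, against -0.01 for 2591 other genes. The 26 longest (2741 to 7300 bases) had a median of -0.18, and 24 of these 26 were below 0. In 4700 other genes the median was 0.18, and the middle 50% ran from 0.02 to 0.33. For some members the longest transcript far exceeds the median annotated one, as in Mrpl17 (7300 against 869 bases) and Mrps25 (6073 against 636 bases). Genes were thus matched on the longest transcript only, and which transcripts the cells used was not tested. With the trend of the log2 ratio with length and GC content removed, in 20 bins each, the 77 genes had a median of -0.14 against 0 for all genes, and 60 of 77 were below 0, against 49.9% of all genes. The value depended on which transcript stood for the gene: with the longest protein-coding transcript the median was -0.09 and 54 of 77 lay below, and with the median annotated transcript -0.23 and 71 of 77. Mrps21 was at -0.90 and Mrpl2 at 0.46 with the trend removed.

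**Figure D3:**
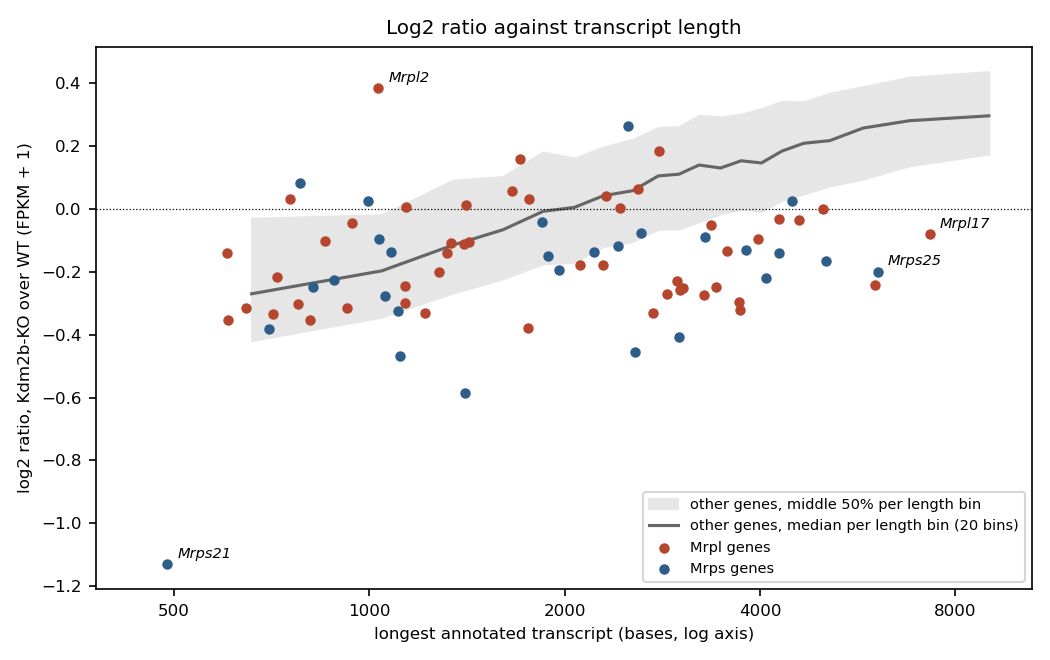
Log2 ratio (FPKM + 1 scale, library labelled Kdm2b-KO over WT library) of the 77 genes against the longest annotated transcript in bases (log axis), with the median and middle 50% of all other genes in 20 length bins in grey. Short members follow the grey line, and most members above about 2741 bases lie under it.

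Level was looked at in the same way. The 26 lowest members past the floor had a median log2 ratio of -0.13, against 0.16 in 3547 other genes of the same range of levels. The 25 in the middle had -0.14, against 0.10, and the 26 highest -0.24, against -0.01. Members were thus lower than other genes of like level in each range. The counting intervals narrowed with level, from a median width of 0.79 in the lowest to 0.33 in the highest group.

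The genes are scattered over the genome. They lie on 17 chromosomes, with 11 on chromosome 11 and 8 on chromosome 17, and a single pair of members lay within 100000 bases of each other. That pair, Mrpl46 and Mrps11 on chromosome 7 (78775236 to 78783531, minus strand, and 78783119 to 78792989, plus strand, GRCm38), starts head to head with an overlap. Mrpl46 stood at 23.9 FPKM in the library labelled Kdm2b-KO and 29.7 FPKM in the WT library (-0.30), and Mrps11 at 5.15 and 6.45 FPKM (-0.28). Their log2 ratios were almost equal although their levels were several-fold apart.

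Head-to-head starts were common. A protein-coding neighbour on the opposite strand began within 1000 bases of the start of 33 of the 78 genes (42.3%), against 10.9% of 21633 listed protein-coding genes and 17.2% of those past the floor. In 18 of the 33 the neighbours did not overlap at their starts, and in 15 they did. No strand marking is described in the labels' protocols, so reads from an overlap cannot be assigned to one gene. Members with such a neighbour had the same median log2 ratio, -0.15, as those without.

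Members lay mostly below 0 and their neighbours, like most genes, above it. In 21 pairs the neighbour was past the floor and was not itself a member. In these the median log2 ratio was -0.20 for the members and 0.20 for the neighbours. Above 0 were 14 of the 21 neighbours, a share near the 63.2% of all genes. Below 0 were 19 of the 21 members, against 36.8% of all genes. In 16 pairs the signs were opposite. With most members below 0 and most genes above it, opposite signs are common with any neighbour, so the count describes no trait of the pairs. Mrps12 and Sars2, the mitochondrial seryl-tRNA synthetase gene, start 172 bases apart. Sars2 stood at 2.64 FPKM in the library labelled Kdm2b-KO and 2.00 FPKM in the WT library (0.28), and Mrps12 was at -0.23 with an interval that spanned 0. Mrpl57 and Ska3, a gene of chromosome segregation, start 49 bases apart. Mrpl57 stood at 5.63 FPKM in the library labelled Kdm2b-KO and 6.98 FPKM in the WT library (-0.27, with an interval of -0.55 to -0.07), and Ska3 at 2.01 and 1.04 FPKM (0.56). The neighbours had longer transcripts, with a median of 3127 bases against 1757 for the members of these pairs. With the trend in length and GC content removed the medians were -0.14 for the members and 0.03 for the neighbours, and the member was the lower one in 15 of 21 pairs, against 16 before.

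**Figure D4:**
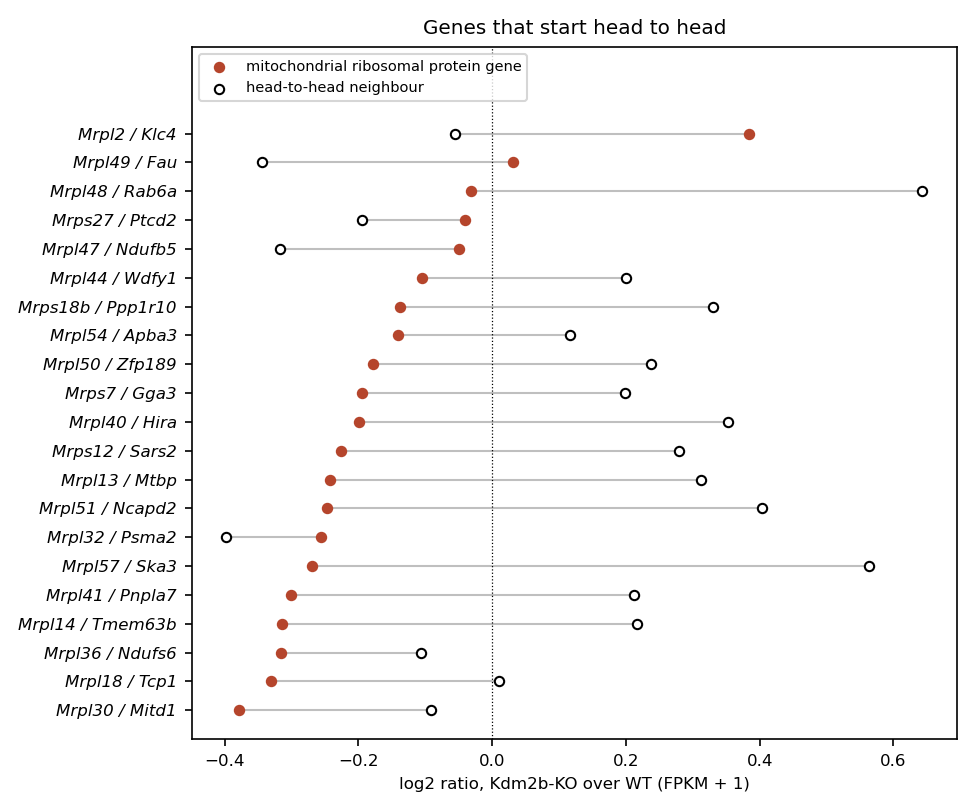
Log2 ratio (FPKM + 1 scale, library labelled Kdm2b-KO over WT library) of the 21 mitochondrial ribosomal protein genes with a head-to-head protein-coding neighbour past the floor (filled points) and of that neighbour (open points), joined by grey lines. In 16 of the 21 pairs the filled point lies left of the open one, with Mrpl2, Mrpl49, Mrps27, Mrpl47 and Mrpl32 as the exceptions.

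Promoter sequence was examined for motif cores of factors that are known to drive nuclear genes of mitochondrial function. These were TGCGCA for NRF1 (its own reverse complement), CCGGAAG for ETS factors such as GABPA, and AAGATGG for YY1, sought on both strands, and none of the 3 contains another. RefSeq promoters (GRCm38.p6, 250 bases before to 50 after the start) were matched for 69 of the 78 genes by symbol. The NRF1 core was held by 30.4% of these genes, against 16.9% of genes past the floor and 8.79% of all genes with a promoter. The ETS core was held by 37.7%, against 22.6% and 9.93%, and the YY1 core by 18.8%, against 9.22% and 7.28%. A match describes letters in a window and is not a site shown to be bound.

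The log2 ratio did not separate by these motifs. Members with the NRF1 core had a median of -0.17 (21 genes) and those without it -0.19 (48 genes). With and without the ETS core the medians were -0.18 in both cases, and with and without the YY1 core they were -0.19 and -0.18. Gabpa stood at 8.77 FPKM in the library labelled Kdm2b-KO and 7.76 FPKM in the WT library, with a counting interval of -0.13 to 0.48. Yy1 stood at 10.7 and 9.07 FPKM (interval 0.10 to 0.37). Nrf1, under the floor, stood at 0.846 and 0.761 FPKM (interval -0.56 to 0.86). With the trend in length and GC content removed Gabpa was at 0.03 and Yy1 at -0.04. Any part of these factors in the values of the family was not tested.

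The 250 bases before the RefSeq start are shown for the ends of the ranking, Mrps21 and Mrps23 at the low end and Mrpl2 and Mrps2 at the high end, for Mrps18a, the only member with all 3 cores in its 300 base window, and for Mrps12, which shares its start region with Sars2. Sequences are from RefSeq, build GRCm38.p6, written 5′ to 3′ on the strand of the gene. Capitals mark the motif cores in the stretch shown, which are absent from Mrps21, Mrpl2 and Mrps2 here. In the 300 base window used for the counts, Mrps21, Mrps23 and Mrps12 also hold the ETS core and Mrps18a the YY1 core. These cores do not lie wholly within the stretch shown.
Mrps21, chr3:95871515-95871764, minus strand: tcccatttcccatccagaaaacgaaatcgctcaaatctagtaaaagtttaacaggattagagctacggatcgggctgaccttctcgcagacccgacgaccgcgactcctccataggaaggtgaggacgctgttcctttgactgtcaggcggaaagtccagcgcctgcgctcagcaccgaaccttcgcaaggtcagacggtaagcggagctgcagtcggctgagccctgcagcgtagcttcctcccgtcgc
Mrps23, chr11:88204138-88204387, plus strand: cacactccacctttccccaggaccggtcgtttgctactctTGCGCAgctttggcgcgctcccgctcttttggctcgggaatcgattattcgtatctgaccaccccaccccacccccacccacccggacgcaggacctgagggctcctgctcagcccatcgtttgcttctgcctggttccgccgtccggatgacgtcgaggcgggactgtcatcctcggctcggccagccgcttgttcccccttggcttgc
Mrpl2, chr17:46645971-46646220, plus strand: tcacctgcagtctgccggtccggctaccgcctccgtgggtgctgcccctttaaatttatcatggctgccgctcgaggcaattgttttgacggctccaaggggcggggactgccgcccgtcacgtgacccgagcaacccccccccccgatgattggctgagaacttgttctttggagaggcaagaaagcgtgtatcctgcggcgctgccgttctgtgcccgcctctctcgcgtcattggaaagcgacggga
Mrps2, chr2:28467816-28468065, plus strand: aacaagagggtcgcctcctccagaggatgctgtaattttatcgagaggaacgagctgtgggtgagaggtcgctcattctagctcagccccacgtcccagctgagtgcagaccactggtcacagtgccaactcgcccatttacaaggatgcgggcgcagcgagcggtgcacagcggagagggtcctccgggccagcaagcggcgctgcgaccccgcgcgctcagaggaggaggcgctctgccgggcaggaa
Mrps18a, chr17:46110754-46111003, plus strand: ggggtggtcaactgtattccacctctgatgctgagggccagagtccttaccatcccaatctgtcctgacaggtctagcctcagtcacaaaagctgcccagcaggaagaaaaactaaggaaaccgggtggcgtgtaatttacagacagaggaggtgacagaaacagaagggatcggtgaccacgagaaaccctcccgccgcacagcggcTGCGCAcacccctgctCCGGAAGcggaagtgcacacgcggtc
Mrps12, chr7:28741822-28742071, minus strand: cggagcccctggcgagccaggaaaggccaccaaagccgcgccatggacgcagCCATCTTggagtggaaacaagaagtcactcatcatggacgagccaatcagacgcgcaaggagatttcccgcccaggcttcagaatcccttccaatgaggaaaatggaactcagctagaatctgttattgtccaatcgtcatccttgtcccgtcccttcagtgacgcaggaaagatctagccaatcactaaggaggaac

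Lists of other genes of mitochondrial gene expression had medians on both sides of 0. No difference between a list and the family was tested. The 5 ribosomal proteins without an Mrp symbol, all past the floor, came close to the family, with a median of -0.11 (3 of 5 below 0) and of -0.12 after removal of the length and GC trend. Chchd1 stood at 52.7 FPKM in the library labelled Kdm2b-KO and 67.9 FPKM in the WT library (-0.36) and Aurkaip1 at 17.0 and 20.8 FPKM (-0.28), whereas Dap3 (1.89 and 1.74 FPKM, 0.08) and Ptcd3 (1.92 and 1.84 FPKM, 0.04) were close in both.

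Factors that assemble or serve the ribosome had medians between those of the family (-0.15) and of all genes (0.10). Of 19 assembly factors past the floor, of 25 listed, 12 were below 0 (63.2%, against 36.8% of all genes) and the median was -0.03. Rcc1l (3.22 and 2.19 FPKM, 0.40) and the GTPase gene Noa1 (3.19 and 2.22 FPKM, 0.38) stood highest, and Mpv17l2 lowest (28.2 and 35.0 FPKM, -0.30). Of 15 translation factors past the floor, of 18 listed, 7 were below 0 (46.7%) and the median was 0.01, with Slirp, an RNA-binding partner of Lrpprc, at 4.21 and 5.94 FPKM (-0.41). After removal of the length and GC trend both medians were below 0, the value of all genes. That of the assembly factors was -0.06 (14 of 19 below 0) and that of the translation factors -0.07 (11 of 15), against 49.9% of all genes below 0.

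Synthetases and regulators had medians above that of all genes (0.10). The mitochondrial aminoacyl-tRNA synthetases, 8 past the floor of 17 listed, had a median of 0.18. Below 0 were 3 of the 8 (37.5%, against 36.8% of all genes), a share near the background. Lars2 stood at 1.54 FPKM in the library labelled Kdm2b-KO and 0.642 FPKM in the WT library (0.63). Of nuclear regulators of mitochondrial genes, 7 of 10 were past the floor, all above 0 with a median of 0.30, and Myc (1.64 and 0.687 FPKM, 0.65) and Pprc1 (2.60 and 1.68 FPKM, 0.43) were the highest. After removal of the length and GC trend the synthetases had a median of 0.08 and the regulators one of 0.03, against 0 for all genes. Genes of mitochondrial transcription and the nucleoid had 4 of 9 past the floor and a median of 0.09, near that of all genes.

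The 13 mitochondrially encoded mRNAs, which these ribosomes translate, had a median of 0.14, with 9 above 0 (69.2%, against 63.2% of all genes) and 4 below. Their sum was 39255 FPKM in the library labelled Kdm2b-KO and 39759 FPKM in the WT library. After removal of the length and GC trend their median was 0.52, with 12 of 13 above 0. That trend is set almost wholly by nuclear genes. The 13 have a median length of 784 bases and GC content of 37.1%, against 3092 bases and 49.3% over all genes past the floor. Whether the trend holds for mitochondrial transcripts was not tested, so the 0.52 is uncertain. The mitochondrial ribosomal RNAs were not analysed here.

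**Figure D5:**
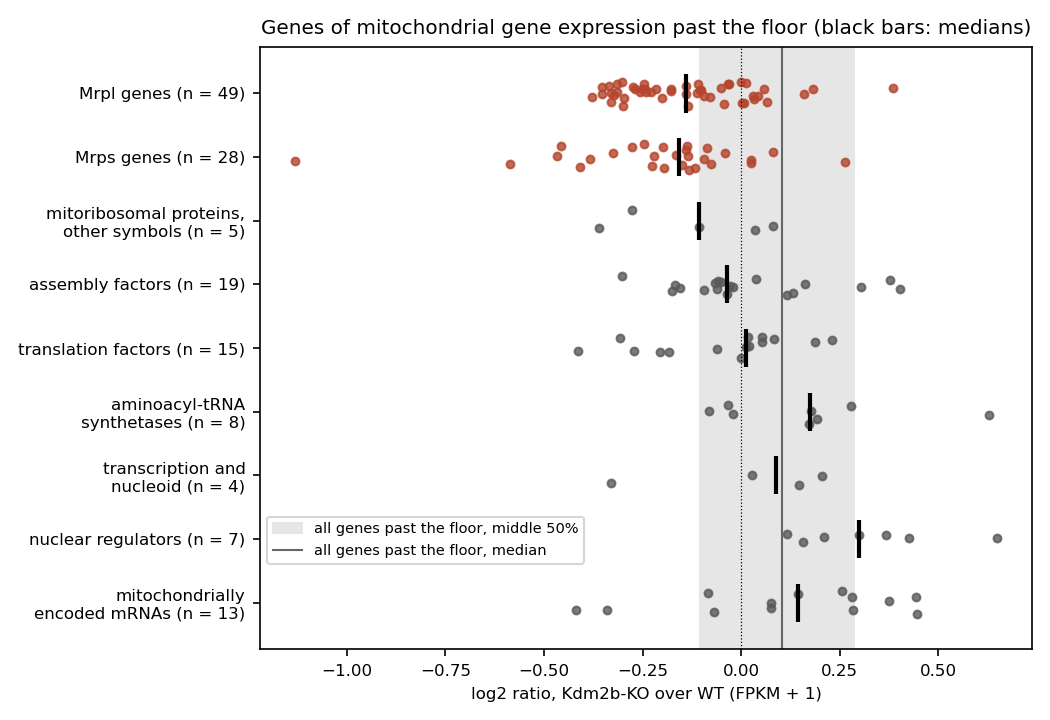
Log2 ratio (FPKM + 1 scale, library labelled Kdm2b-KO over WT library) of genes past the floor in the Mrpl and Mrps families (red) and in 7 lists of other genes of mitochondrial gene expression (grey), with black bars for medians and the band for the middle 50% of all genes. The Mrpl and Mrps medians, -0.14 and -0.16, are the lowest of the 9, and the nuclear regulators, at 0.30, the highest.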

How the data were processed

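The values used are the FPKM that the authors deposited, 1 per Ensembl gene and library, per the file headers. HISAT2 2.0.4, StringTie 1.3.0 and edgeR appear in the submitters' processing notes, as do the builds GRCm38.p4 and mm10. The sources used here do not give their roles, the annotation or any filtering. Libraries were paired-end TruSeq from polyadenylated RNA, per the labels' protocols. FPKM divides by length and library size, so a change in a few abundant genes moves all others.

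Symbols, coordinates, transcript lengths and GC content came from GENCODE M21 (GRCm38). A symbol was found for 34344 of 34745 IDs, and 401 had none. Log2 ratios were computed from FPKM + 1, for genes that averaged 1 FPKM or more over both libraries. With 1 library per group, genes were counted by fixed folds of 1.2, 1.5 and 2, and no test was made. Depth was estimated from genes with 1 annotated transcript: FPKM times length was a whole multiple of 1 step, within 0.02 of a fragment, for 92.6% of 1493 low values in the library labelled Kdm2b-KO and 92.3% of 1448 in the WT library. Fragments per gene follow from these steps and are approximate for genes with several transcripts. Intervals are exact Clopper-Pearson 95% intervals and hold counting error alone, as PCR duplicates of a molecule are counted again. The calculations were checked on simulated data. Python 3.11.15, pandas 2.3.3 and scipy 1.17.1 were used.

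The members and lists were chosen with earlier results of these data known. Genes were named by rule: in each subunit the 5 highest and 5 lowest log2 ratios and the 3 most and 3 least abundant genes past the floor, every member under the floor, Mrps30, Mrps18a, Mrpl12, Mrps12, Mrpl11, Mrps2, Mrpl58 and Kdm2b, and in each list up to 4 of the largest ratios. Marker genes, neighbours, Mrpl46, Mrps11, Mrps36 and the factors Gabpa, Yy1 and Nrf1 were named after their values were seen.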

Additional observations from a re-analysis of the deposited data

How the results depend on the processing

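The alternatives were a pseudocount of 0.1 or 5, 3 scalings of the libraries, a floor of 5 FPKM or none, removal of the trend with length and GC content, protein-coding background, no members with a same-strand overlap, subunits by structure and other folds. Added after the data were seen were other lengths in the trend removal and leaving out Mrps21 or Mrps36. The median log2 ratio of all members stayed below 0 in every one of these, from -0.27 to -0.08. It was -0.26 with the libraries scaled to a median of 0, which lowers all values by about 0.10, and -0.27 with equal upper quartiles. The difference of the medians, large minus small, turned to -0.034 with a pseudocount of 5, to -0.013 and -0.014 with these scalings and to -0.041 with a floor of 5 FPKM. The cause was not tested. At least 1.5-fold lower were 4 members with equal upper quartiles, and 1 with a pseudocount of 5, equal totals, the trend removed (also with the longest protein-coding transcript) or Mrps21 left out. A changed pseudocount, scaling or trend moves the ratios of all genes as well. The share of all genes 1.5-fold lower is not given for those settings, so these changes in count describe no trait of the members. At a fold of 1.2 the counts were 22 lower and 2 higher, and at 2-fold 1 lower. The level ratio of large over small was 1.25 and 1.14 in the library labelled Kdm2b-KO and the WT library with a floor of 5 FPKM, and 1.97 and 2.01 without members with a same-strand overlap. Members that overlap another gene only on the opposite strand were kept in every setting. No paired analysis was possible because each group holds 1 library. Depth limits the low members, whose counting intervals are widest.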
